A study of Mus musculus with 23 samples.

Results

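The genes described here are 34 mouse autophagy and mitophagy genes, chosen by name and found by symbol in both deposited count tables, out of 56196 gene rows in each table. They cover the route by which a cell encloses cytoplasm or whole mitochondria in a membrane and delivers it to the lysosome. All 34 genes passed the filter on low counts in both tables, so every one was tested in every comparison. Atg2a had a second row of the same symbol, which held only zeros and was not used.

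The study measured mRNA in germinal vesicle (GV) oocytes and early embryos labelled Eif4enif1+/- (heterozygous, here het) or wild type (WT). Eif4enif1 encodes 4E-T, a partner of the cap-binding protein eIF4E. GV oocytes, which are immature oocytes still in meiotic prophase, went through T&T-seq, a paired assay of ribosome-bound mRNA (the translatome, captured with RiboLace beads) and total mRNA (the transcriptome) from 1 specimen. There were 2 het translatomes, 2 WT translatomes, 2 het transcriptomes and 2 WT transcriptomes. Embryo RNA-seq gave 3 libraries each of het embryos arrested at the 1-cell stage after 24 h of culture in vitro, het 2-cell and WT 2-cell embryos after 24 h of culture, and het 1-cell and WT 1-cell embryos with no culture time given. The labels do not say whether an embryo's genotype is its own or that of its mother, nor how many oocytes or embryos went into a library, nor whether libraries came from separate females. The p-values below therefore measure the spread between these libraries, which may be technical. The allele is labelled only as Eif4enif1+/-, and the sources used here give no strain or age.

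Levels are CPM, counts brought to 1 common library size, with edgeR's TMM factors within each table. A level is relative to the scaled size of its library: fewer cells of a type and less RNA per cell cannot be told apart. Libraries held 3621103 to 50487687 counts in the oocyte table and 5597333 to 40377212 in the embryo table. Every het oocyte, 1-cell and 2-cell library had less Eif4enif1 mRNA than its WT counterparts (149.9 and 97.1 CPM in het translatomes against 312 and 270.2 CPM in WT translatomes), and the arrested het libraries had 109.6, 28.5 and 62.7 CPM. The het 1-cell libraries 1 and 3 stood apart: their 100 most abundant genes took 6.34% and 5.53% of counts, against 38.05% in het library 2 and 32.1% to 37.6% in the WT 1-cell libraries. Their TMM factors were 2.02 and 2.15, and those of the other embryo libraries lay between 0.636 and 1.10. A factor above 1 lowers every CPM value of its library. All 12 oocyte markers were present in every oocyte library. Sperm markers summed to at most 24.2 CPM in any library. Granulosa and cumulus markers are given beside the oocyte results and 2-cell markers beside those of the arrested embryos.

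Autophagy starts when the ULK kinase complex activates a PI3-kinase complex, whose lipid product recruits WIPI proteins to a growing membrane fed by ATG9 vesicles and ATG2 lipid transfer. Conjugation enzymes then attach the Atg8 proteins (the LC3 and GABARAP families) to that membrane, where cargo receptors such as p62 dock. In mitophagy the cargo is a mitochondrion, marked by the kinase PINK1 or by the outer-membrane receptors BNIP3, NIX and FUNDC1. In the mouse, autophagy is induced after fertilization, and embryos from oocytes that lack Atg5 stop during preimplantation development when the sperm does not supply the gene.

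The 5 Atg8 genes are shown by the end of their coding sequence, since 4 of them are among the members that rose most in 2-cell embryos and since this end is where ATG4 proteases cut. Each line gives the last 30 coding bases with the stop codon, 5′ to 3′ on the mRNA strand, from the GENCODE M21 transcripts (GRCm38, mm10). Capitals mark the codon of the glycine to which the lipid is attached. The genes lie at chr2:155276297-155278073 (Map1lc3a), chr8:121590361-121598760 (Map1lc3b), chr11:69991143-69994951 (Gabarap), chr6:129533160-129542346 (Gabarapl1) and chr8:111940703-111953612 (Gabarapl2), all on the plus strand.
Map1lc3a: tacgcctcccaagaaaccttcGGCttctga
Map1lc3b: gagacattcGGGacagcaatggctgtgtaa
Gabarap: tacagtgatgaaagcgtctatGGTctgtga
Gabarapl1: tacagtgatgaaagtgtctatGGAaaatga
Gabarapl2: tacagcggagagaacacttttGGCttctga
In Map1lc3b 5 codons follow the glycine, and in each of the other 4 genes 1 codon follows it. The coding sequences have 121 codons in Map1lc3a, 125 in Map1lc3b and 117 in each of the other 3.

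To set genes beside each other, levels were divided by exon length (CPM per kb). Atg5, whose product joins Atg12 in the conjugation machinery, had the highest level per kb of all 34 genes in the 4 oocyte groups, the 1-cell groups and the arrested group. It averaged 169.7 ± 5.45 CPM per kb in het and 221 ± 26.6 CPM per kb in WT oocyte transcriptomes (SD, n = 2 each). Bnip3l (NIX), Map1lc3a and Sqstm1 (p62) came next among the oocyte transcriptomes, at 64.6 ± 3.11, 74.9 ± 19.8 and 31.4 ± 4.24 CPM per kb in het libraries and 71.2 ± 3.68, 65.9 ± 3.88 and 52.5 ± 7.26 CPM per kb in WT libraries, with Gabarapl2 at 31.4 ± 4.42 CPM per kb in het. Bnip3l and Map1lc3a did not differ beyond their spread. In 2-cell embryos Map1lc3b led instead, at 582 ± 352 CPM per kb in het and 561 ± 112 CPM per kb in WT libraries (SD, n = 3 each). Tfeb, a transcription factor for lysosomal genes, was the lowest member in every oocyte group and in both 2-cell groups, and it had no count in any 1-cell library, which allows up to 0.0784 CPM in the het and 0.0604 CPM in the WT 1-cell group (3 counts over the group). These limits cover counting error only.

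Within the Atg8 family the make-up of the mRNA pool differed between stages. In oocytes Map1lc3a was the main species per kb, with 51.8% to 61.8% of the 5 genes' CPM per kb in het transcriptomes and 55.04% to 56.8% in WT transcriptomes. In 1-cell embryos Gabarapl2 held the largest share, 40.4% to 52.6% in het and 51.005% to 60.1% in WT libraries, and Map1lc3a held 14.5% to 29.6% in het and 3.88% to 7.83% in WT libraries. In 2-cell embryos Map1lc3b led with 43.7% to 51.1% in het and 42.5% to 45.7% in WT libraries. The order before the 2-cell stage depends on the exon length, merged over annotated transcripts: 7517 bases for Map1lc3b and 1181 for Map1lc3a. In plain CPM the mean of Map1lc3b was above that of Map1lc3a in oocyte transcriptomes (100 and 88.5 CPM in het, 119 and 77.8 CPM in WT). In every 1-cell library the plain CPM of Map1lc3b was above that of Gabarapl2. The summed level was 430.3, 1380.4 and 1695 CPM per kb in het 2-cell and 1481, 1302 and 994 CPM per kb in WT 2-cell libraries, against 40.8, 42.02 and 41.1 CPM per kb in het 1-cell and 48.2, 45.4 and 39.2 CPM per kb in WT 1-cell libraries. Oocytes and embryos stand in tables that were counted and scaled separately, so no test was made across them.

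**Figure D1:**
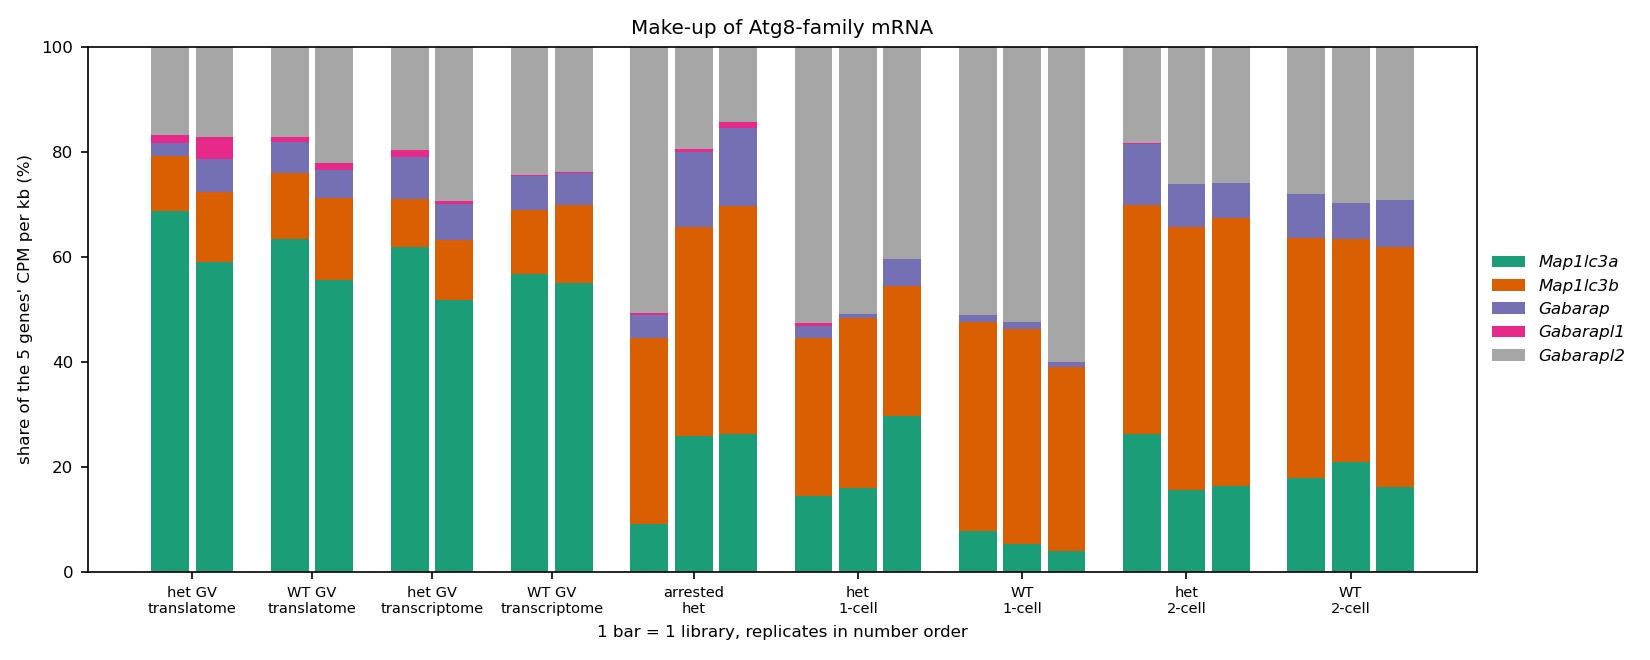
Make-up of Atg8-family mRNA in each library: the y axis is each gene's share, in percent, of the summed CPM per kb of the 5 genes, and each bar is 1 library, grouped on the x axis by genotype, fraction and stage. Map1lc3a holds 55.04% to 56.8% in WT oocyte transcriptomes and 3.88% to 7.83% in WT 1-cell libraries, where Gabarapl2 holds 51.005% to 60.1%.

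The first question was whether autophagy mRNAs on ribosomes differ between het and WT oocytes. None of the 34 genes passed an adjusted p of 0.05 in the translatome (edgeR quasi-likelihood test, Benjamini-Hochberg over 22409 genes), where 4.61% of all genes tested did. At an unadjusted p under 0.05 there were 2 higher and 3 lower members, where 21.3% of all genes passed, and DESeq2 called 1 higher (Gabarapl1) and 1 lower (Atg9a). The 4.61% is edgeR's share, and DESeq2 called more of all genes, as given below with the other settings. The median log2 fold change, het over WT, was -0.12 for the 34 genes and 0.04 for all genes. Het and WT values did not overlap for 14 members, 41.2% of the 34, where 53.4% of all genes did the same.

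Atg9a (chr1:75180860-75192196, minus strand), whose product is a membrane lipid scramblase, had 11.98 and 13.1 CPM in het translatomes and 48.995 and 17.5 CPM in WT translatomes. Both het libraries were below both WT libraries, and WT library 1 was far above WT library 2. The log2 fold change was -1.41 ± 0.40 SE, adjusted p = 0.06196; without WT translatome library 2 it passed the threshold, at an adjusted p of 0.00931, but then 1 WT translatome is left and is assumed to vary like the other oocyte groups. The annotation places 32.6% of Atg9a exon bases under Gm29253 on the same strand or Ankzf1, and the sources used here do not say how shared reads were assigned. Gabarapl1, a GABARAP-family gene, had 4.38 and 8.38 CPM among het and 1.27 and 2.11 CPM among WT translatomes, without overlap. Its log2 fold change was 1.94 ± 0.61 SE, adjusted p = 0.0857. Of its exon bases, 28.3% are shared with 1700101I11Rik on the other strand, and no source used here says that counting used strand.

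In the transcriptome, too, none of the 34 genes passed, where 2.55% of all genes did; 2 members were higher and 6 lower at an unadjusted p under 0.05, which 19.6% of all genes reached. DESeq2 called 3 members, Gabarapl1 as higher and Atg4b and Atg7 as lower, and the fit without a filter on low counts called the same number. The 2.55% is edgeR's share with the filter, and DESeq2 called more of all genes here too. The median log2 fold change was -0.17 for the 34 genes and -0.04 for all genes, and 18 members (52.9%) did not overlap between het and WT, against 50.3% of all genes. Gabarapl1 had 4.001 and 1.49 CPM in het transcriptomes and 0.135 and 0.536 CPM in WT transcriptomes, again with both het values above both WT values (log2 fold change 2.85 ± 0.72 SE, adjusted p = 0.0527). Without WT transcriptome library 2, Gabarapl1 passed at an adjusted p of 0.0391, with the 1 WT transcriptome left assumed to vary like the other groups. Atg7, the E1-like enzyme of both conjugation reactions, had 8.502 and 8.55 CPM among het and 18.6 and 20.5 CPM among WT transcriptomes (log2 fold change -1.20 ± 0.31 SE, adjusted p = 0.0584).

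By role, the median log2 fold change in the translatome and in the transcriptome was -0.55 and 0.39 for the 4 initiation genes, -0.26 and -0.42 for the 4 genes of the PI3-kinase complex, -0.24 and -0.16 for the 5 of lipid transfer and phosphoinositide binding, -0.21 and -0.59 for the 6 conjugation genes and 0.55 and 0.18 for the 5 Atg8 genes. It was -0.14 and -0.34 for the 4 genes of cargo receptors and their kinase and 0.18 and 0.02 for the 4 mitophagy genes. Of the 2 lysosomal genes, Tfeb had no count in WT transcriptomes, and Lamp2 had a log2 fold change 0.44 ± 0.34 SE, adjusted p = 0.499 in the translatome and a log2 fold change 0.55 ± 0.36 SE, adjusted p = 0.427 in the transcriptome. Atg4b, the protease that trims Atg8 proteins, had 91.5 and 57.4 CPM among het and 130.2 and 171 CPM among WT transcriptomes (log2 fold change -1.03 ± 0.27 SE, adjusted p = 0.0629). Map1lc3a had 127 and 70.1 CPM among het and 52.3 and 53.4 CPM among WT translatomes (log2 fold change 0.90 ± 0.30 SE, adjusted p = 0.103). Of the 4 mitophagy genes, the most abundant was Bnip3l, and the test passed for none. Bnip3l had 249 and 182 CPM among het and 189 and 172 CPM among WT translatomes (log2 fold change 0.26 ± 0.25 SE, adjusted p = 0.592), and Pink1 had 13.1 and 10.99 CPM among het and 20.1 and 12.3 CPM among WT translatomes (log2 fold change -0.43 ± 0.42 SE, adjusted p = 0.599).

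Markers of granulosa and cumulus cells, which surround the oocyte, moved with genotype in these libraries. The summed level of the 16 markers was 714 and 1058 CPM in het translatomes, against 199 and 398 CPM in WT translatomes. In het transcriptomes it was 434 and 315 CPM, against 115 and 204 CPM in WT transcriptomes. Of the 15 tested, 5 were called higher in het translatomes and 6 in het transcriptomes, and none lower. Ptx3 had no count in any WT oocyte library. Genes of the mitochondrial genome took 0.657 and 1.32 percent of counts in het translatomes, against 0.229 and 0.158 percent in WT translatomes, and 0.682 and 0.999 percent in het transcriptomes, against 0.306 and 0.311 percent in WT transcriptomes. The part of either in the values of the 34 genes was not tested. Oocyte markers had no call in either fraction.

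**Figure D2:**
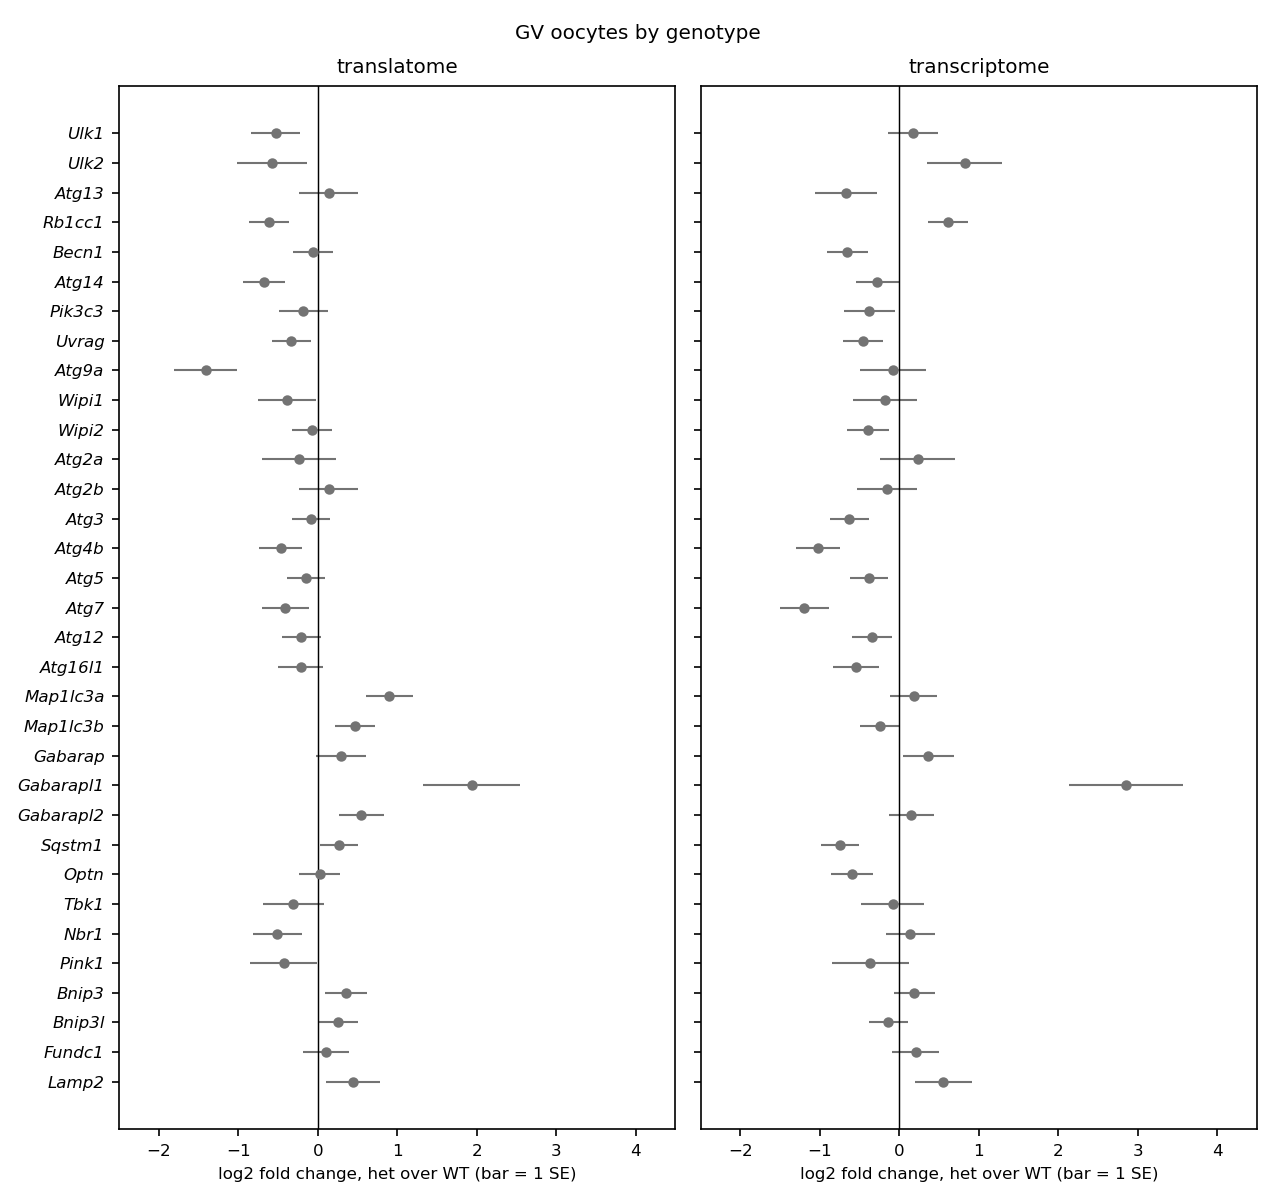
Log2 fold change of each member, het over WT, in oocyte translatomes (left) and transcriptomes (right); points are edgeR estimates and bars are 1 SE, with n = 2 libraries a group. Tfeb is left out, having no count in WT transcriptomes. Gabarapl1 lies farthest to the right in both panels, at 1.94 and 2.85, and Atg9a farthest to the left among translatomes, at -1.41; none passed an adjusted p of 0.05.

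Whether the genotype difference itself differed between ribosome-bound and total mRNA was tested as an interaction. No member passed, where 0.0134% of all genes did; DESeq2 also called none, and 1 member was higher and 3 lower at an unadjusted p under 0.05, which 8.92% of all genes reached. The median was 0.15 for the 34 genes and 0.14 for all genes. Rb1cc1 (FIP200), the scaffold of the ULK complex, had the smallest p. It had 25.003 and 25.6 CPM among het and 41.3 and 36.4 CPM among WT translatomes, but 42.01 and 48.3 CPM among het and 33.8 and 25.6 CPM among WT transcriptomes. The difference of the log2 changes was -1.23 ± 0.36 SE, adjusted p = 0.407. Sqstm1, the receptor p62, ran the other way, with 178 and 178 CPM among het and 144 and 153 CPM among WT translatomes, and 115 and 95.1 CPM among het and 159 and 194 CPM among WT transcriptomes (difference 1.01 ± 0.34 SE, adjusted p = 0.458). Mrnip, on the other strand, overlaps 17.3% of Sqstm1 exon bases.

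Ribosome-bound mRNA was next compared with total mRNA within a genotype. Pink1 (chr4:138313409-138326307, minus strand), the kinase that marks damaged mitochondria, was higher in the translatome in both genotypes. In het oocytes 3 members passed, all higher in the translatome (Pink1, Atg3 and Atg16l1), where 8.09% of all genes passed (6.19% higher and 1.91% lower). In WT oocytes 6 passed, 5 higher (Atg9a, Pink1, Gabarapl1, Ulk1 and Tfeb) and Gabarapl2 lower, where 14.6% of all genes passed (8.95% higher and 5.64% lower). The median log2 fold change, translatome over transcriptome, was 0.29 for the members and 0.04 for all genes in het, and 0.22 and -0.04 in WT. The summed granulosa and cumulus markers given above were higher in each translatome than in the transcriptome of the same specimen. Of the 15 tested, 1 was called higher in the translatome in het and 7 in WT, and none lower, and of the 12 oocyte markers 4 were higher and 1 lower in het and 3 higher in WT; the part of such RNA in these values was not tested.

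Pink1 had 13.1 and 10.99 CPM in het translatomes and 5.502 and 1.78 CPM in het transcriptomes (log2 fold change 1.95 ± 0.49 SE, adjusted p = 0.0282). In WT it had 20.1 and 12.3 CPM in translatomes and 4.74 and 3.29 CPM in transcriptomes (log2 fold change 2.02 ± 0.43 SE, adjusted p = 0.0108). All 4 translatome values exceeded all 4 transcriptome values. Atg9a had 11.98 and 13.1 CPM in het translatomes and 5.502 and 8.46 CPM in het transcriptomes (log2 fold change 0.79 ± 0.42 SE, adjusted p = 0.252), and 48.995 and 17.5 CPM in WT translatomes and 7.54 and 7.78 CPM in WT transcriptomes (log2 fold change 2.13 ± 0.41 SE, adjusted p = 0.00635).

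Atg3, the E2-like enzyme that lipidates Atg8 proteins, had 51.4 and 51.6 CPM in het translatomes and 26.3 and 27.9 CPM in het transcriptomes (log2 fold change 0.92 ± 0.24 SE, adjusted p = 0.0361). Its WT values were 50.5 and 58.8 CPM in translatomes and 46.4 and 37.7 CPM in transcriptomes, which missed the threshold (log2 fold change 0.38 ± 0.24 SE, adjusted p = 0.297). Atg16l1, the subunit that brings the Atg12 and Atg5 conjugate to the membrane, had 141 and 87.7 CPM in het translatomes and 68.5 and 44.4 CPM in het transcriptomes (log2 fold change 1.03 ± 0.29 SE, adjusted p = 0.0455). Ulk1, the initiating kinase, had 15.7 and 22.5 CPM in WT translatomes and 9.702 and 8.55 CPM in WT transcriptomes (log2 fold change 1.06 ± 0.31 SE, adjusted p = 0.0375). Gabarapl2 was the member on the lower side, with 27.9 and 41.9 CPM in WT translatomes and 68.7 and 63.5 CPM in WT transcriptomes (log2 fold change -0.93 ± 0.29 SE, adjusted p = 0.0451); under DESeq2's size factors in edgeR this call was lost, at an adjusted p of 0.0599. Gabarapl1 had 1.27 and 2.11 CPM in WT translatomes and 0.135 and 0.536 CPM in WT transcriptomes (log2 fold change 2.29 ± 0.67 SE, adjusted p = 0.0374).

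Tfeb rested on few reads: it had 31 counts in the WT translatomes, all in library 1, and 0 in the WT transcriptomes. This makes it at least 15.7-fold higher in counts pooled over the group (3 counts over the group stand for 0). Bounds of this kind, here and below, leave out the counting error of the group with reads and the spread between its libraries. In het it had 50 counts in translatomes and 2 in transcriptomes, a ratio of 8.85 (95% exact counting interval 2.33 to 75.1). None of the differences between the genotypes in these enrichments passed, by the interaction test above. With 1 library left out in turn, where the 1 library left in its group is assumed to vary like the other groups, none of these calls held every time: the highest adjusted p of Pink1 was 0.468 in het (without transcriptome library 2) and 0.0536 in WT (without transcriptome library 2), and that of Atg9a 0.0561 in WT (without translatome library 1). No member passed in het without translatome library 1 or without transcriptome library 2. In WT 2 members passed without translatome library 1, 3 without transcriptome library 1, 2 without transcriptome library 2 and 2 with only the WT groups in the fit; with the specimen as a block, 5 members passed in het, where Uvrag (higher) and Rb1cc1 (lower) joined the 3, and 6 in WT, where Atg16l1 passed as higher and Tfeb was lost (adjusted p = 0.0601).

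**Figure D3:**
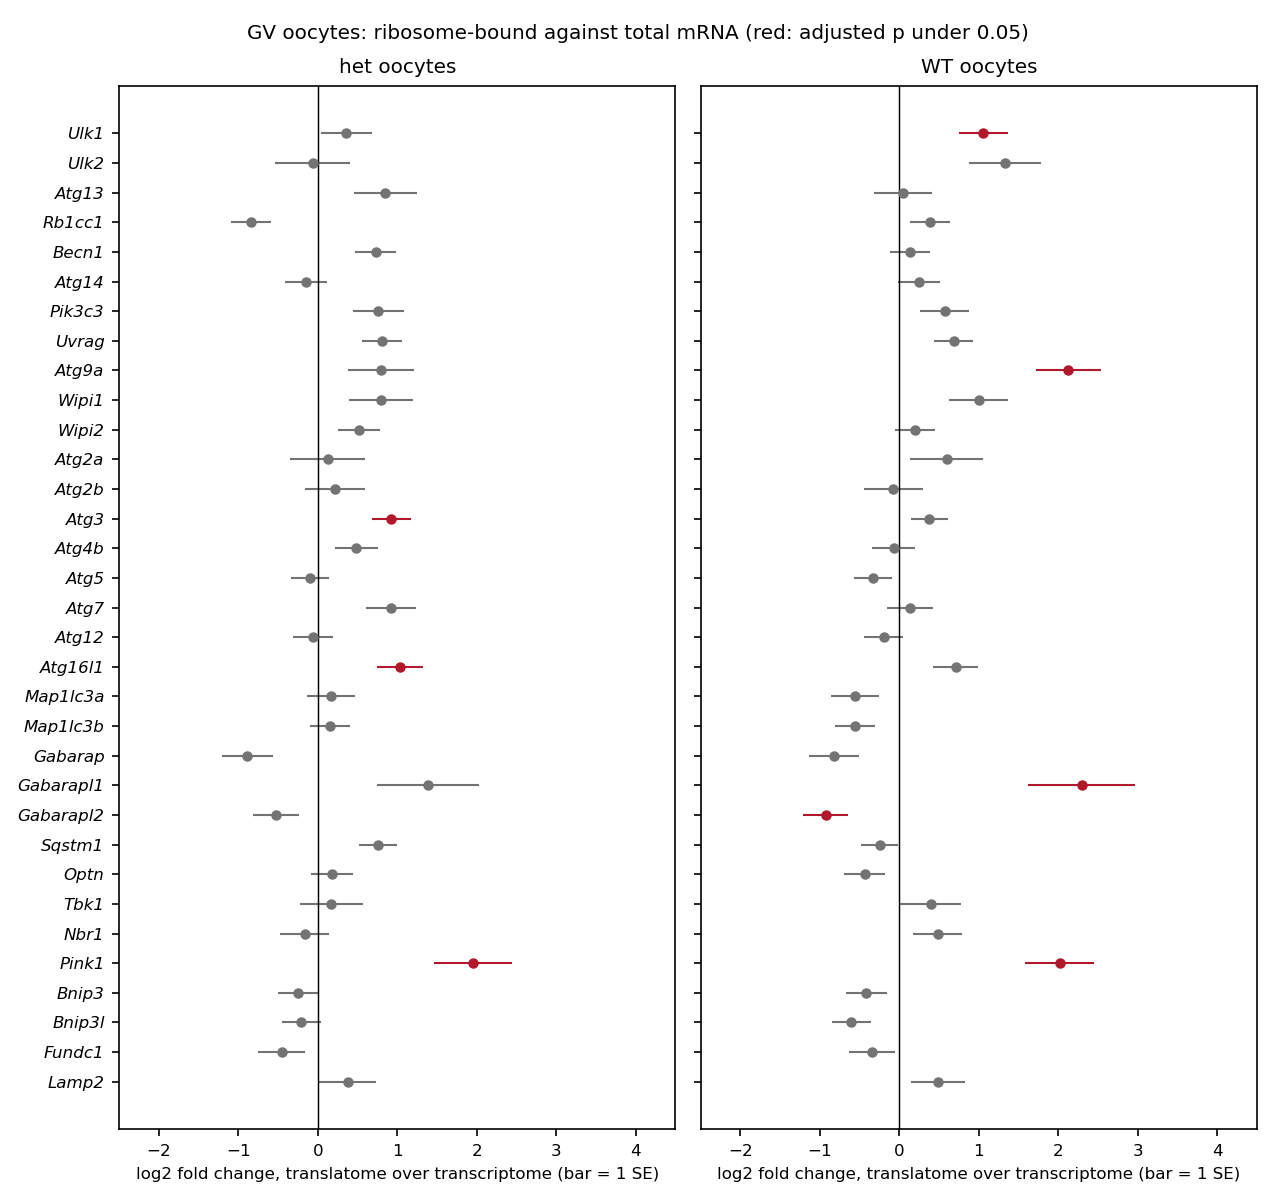
Log2 fold change of each member, translatome over transcriptome, in het (left) and WT (right) oocytes; points are edgeR estimates, bars are 1 SE, n = 2 libraries a group, and red marks an adjusted p under 0.05. Tfeb is left out because of its 0 counts in WT transcriptomes. Pink1 lies near 2 in both panels, at 1.95 in het and 2.02 in WT.

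The 2-cell embryos were then set against 1-cell embryos. All 2-cell libraries followed 24 h of culture and the 1-cell libraries have no culture time given. Stage and culture therefore cannot be told apart here. Mouse 2-cell embryos have activated their own genome and cleared much of the maternal mRNA. Of the 34 genes, 10 rose and 5 fell in het 2-cell embryos, where 36.7% of all 23656 genes tested passed (22.8% higher and 13.9% lower). In WT embryos 9 rose and 5 fell, where 46.4% of all genes passed (28.5% higher and 17.9% lower). The shares called, 44.1% of members in het and 41.2% in WT, lie near those of all genes. These comparisons share no library: 8 members rose in both, 80.0% of the het list and 88.9% of the WT list, and 4 fell in both, 80.0% of each list. Over all genes 90.8% of the het list and 72.8% of the WT list rose in both, and 80.6% and 62.5% fell in both. The median log2 fold change, 2-cell over 1-cell, was 0.62 for members and 0.36 for all genes in het, and 1.01 and 0.59 in WT. Of the 12 oocyte markers, 6 fell in het and 9 in WT, and none rose. Genes of the mitochondrial genome took 9.23% to 19.8% of counts in 2-cell libraries and 0.336% to 3.68% in 1-cell libraries; the part of this share in the members' values was not tested.

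Of the 5 Atg8 genes, 4 rose in both genotypes. Map1lc3b (LC3B) had 1414, 5204 and 6509.6 CPM in het 2-cell libraries, against 92.1, 103 and 76.6 CPM in het 1-cell libraries (log2 fold change 5.60 ± 0.83 SE, adjusted p = 0.000365). Its WT values were 5085, 4163 and 3411 CPM in WT 2-cell libraries, against 144, 139.7 and 104 CPM in WT 1-cell libraries (log2 fold change 5.03 ± 0.81 SE, adjusted p = 0.000325). Every 2-cell library was far above every 1-cell library, and het 2-cell library 1 was the lowest of the 6.

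Gabarap was close to 0 in 1-cell embryos, with 91.9, 209 and 208 CPM in het 2-cell libraries, against 1.68, 0.627 and 3.93 CPM in het 1-cell libraries (log2 fold change 6.32 ± 0.96 SE, adjusted p = 0.000407). In WT it had 229.7, 164 and 167 CPM in WT 2-cell libraries, against 1.302, 1.15 and 0.617 CPM in WT 1-cell libraries (log2 fold change 7.51 ± 1.02 SE, adjusted p = 0.000134), a change of 183-fold that rests on 1-cell levels near 1 CPM. Map1lc3a, the LC3A gene, had 133, 255 and 328 CPM in het 2-cell libraries, against 6.98, 7.88 and 14.4 CPM in het 1-cell libraries (log2 fold change 4.61 ± 0.81 SE, adjusted p = 0.000963). The WT values were 314, 321 and 189.9 CPM in WT 2-cell libraries, against 4.45, 2.82 and 1.799 CPM in WT 1-cell libraries (log2 fold change 6.51 ± 0.89 SE, adjusted p = 0.000138). As with Map1lc3b, het 2-cell library 1 was the lowest 2-cell library for both genes.

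Gabarapl2 (GATE-16), the most abundant Atg8 gene per kb at the 1-cell stage, had 183, 835 and 1020.3 CPM in het 2-cell libraries, against 49.95, 49.6 and 38.7 CPM in het 1-cell libraries (log2 fold change 3.88 ± 0.62 SE, adjusted p = 0.000533). In WT it had 963, 899 and 673 CPM in WT 2-cell libraries, against 57.1, 55.4 and 54.8 CPM in WT 1-cell libraries (log2 fold change 3.92 ± 0.62 SE, adjusted p = 0.000282). Gabarapl1 was the exception in the family: it had 0.934, 0 and 0 CPM in het 2-cell, 0, 0.484 and 0.141 CPM in WT 2-cell and 0.5305, 0 and 0 CPM in het 1-cell libraries, and no count in WT 1-cell libraries. The 17 counts of the WT 2-cell group make it at least 2.91-fold higher there by the same floor, and it did not pass in WT (adjusted p = 0.138) or het (adjusted p = 0.782).

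Among the genes acting on the growing membrane, Wipi2 (chr5:142627698-142670588, plus strand), which binds PI3P and recruits ATG16L1, had 106, 209 and 234 CPM in het 2-cell libraries, against 7.07, 9.23 and 4.501 CPM in het 1-cell libraries (log2 fold change 4.72 ± 0.99 SE, adjusted p = 0.00256). WT embryos had 278, 290.0 and 216 CPM in WT 2-cell libraries, against 1.58, 2.37 and 1.696 CPM in WT 1-cell libraries (log2 fold change 7.11 ± 1.11 SE, adjusted p = 0.000269). Lamp2 (chrX:38401357-38456454, minus strand), a lysosomal membrane protein needed for fusion of autophagosomes with lysosomes, had 142, 424 and 342 CPM in het 2-cell libraries, against 35.2, 12.3 and 18.4 CPM in het 1-cell libraries (log2 fold change 3.78 ± 0.62 SE, adjusted p = 0.000662). Its WT values were 588, 507 and 352 CPM in WT 2-cell libraries, against 21.3, 25.7 and 17.2 CPM in WT 1-cell libraries (log2 fold change 4.49 ± 0.64 SE, adjusted p = 0.000173). For both genes the 2-cell and 1-cell libraries did not overlap.

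Atg9a had 5.701, 7.15 and 12.7 CPM in het 2-cell and 3.62, 3.85 and 5.71 CPM in het 1-cell libraries, which overlap at their edge and missed the threshold (log2 fold change 0.95 ± 1.10 SE, adjusted p = 0.5099). In WT it had 17.1, 16.9 and 15.8 CPM in 2-cell and 1.23, 1.92 and 0.103 CPM in 1-cell libraries, where it passed (log2 fold change 3.93 ± 1.23 SE, adjusted p = 0.0175). Atg2a and Atg2b, which move lipid into the membrane, had 3.75 to 5.81 CPM and 10.3 to 18.7 CPM in the 2-cell libraries and did not pass in either genotype (lowest adjusted p = 0.112). Wipi1, the other WIPI member, had 2.26, 2.72 and 1.26 CPM in het 2-cell, 0.507, 4.27 and 1.06 CPM in WT 2-cell, 4.24, 3.14 and 7.101 CPM in het 1-cell and 4.59, 4.17 and 4.47 CPM in WT 1-cell libraries, and did not pass either.

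In the initiation complex, Ulk2 and Atg13 passed in both genotypes. Atg13, the adaptor of the ULK kinases, had 19.3, 26.6 and 29.9 CPM in het 2-cell libraries, against 2.21, 1.52 and 2.28 CPM in het 1-cell libraries (log2 fold change 3.65 ± 1.12 SE, adjusted p = 0.0206). The WT values were 31.9, 23.9 and 24.7 CPM at the 2-cell and 2.95, 0.0642 and 1.85 CPM at the 1-cell stage (log2 fold change 4.05 ± 1.14 SE, adjusted p = 0.0105). Ulk2, a kinase related to Ulk1, had 14.7, 12.7 and 19.6 CPM in het 2-cell and 3.36, 4.03 and 5.896 CPM in het 1-cell libraries (log2 fold change 1.82 ± 0.52 SE, adjusted p = 0.01499), and 10.1, 13.7 and 18.999 CPM in WT 2-cell and 1.92, 1.796 and 4.11 CPM in WT 1-cell libraries (log2 fold change 2.44 ± 0.54 SE, adjusted p = 0.00233). Ulk1 missed the threshold in both genotypes (adjusted p = 0.0812 in het and 0.171 in WT). Rb1cc1 held 94.7 to 183 CPM in 2-cell and 117 to 156 CPM in 1-cell libraries, with adjusted p = 0.76997 in het and 0.482 in WT.

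The genes that fell belong to the PI3-kinase complex, the conjugation system and the cargo receptors. Uvrag (chr7:98885021-99141141, minus strand), which directs the PI3-kinase complex to endosomes, had 22.7, 25.04 and 14.1 CPM in het 2-cell libraries, against 72.3, 128 and 69.9 CPM in het 1-cell libraries (log2 fold change -2.13 ± 0.39 SE, adjusted p = 0.001197). WT libraries gave 18.9, 25.7 and 30.7 CPM in WT 2-cell libraries, against 108, 137 and 101 CPM in WT 1-cell libraries (log2 fold change -2.20 ± 0.39 SE, adjusted p = 0.000615). Gm45187, on the other strand, covers 17.6% of its exon bases. Atg5 had 114, 142 and 122 CPM in het 2-cell libraries, against 207, 608 and 176 CPM in het 1-cell libraries (log2 fold change -1.39 ± 0.47 SE, adjusted p = 0.0325). WT embryos had 126, 108 and 145 CPM in WT 2-cell libraries, against 700.0, 635 and 609.8 CPM in WT 1-cell libraries (log2 fold change -2.36 ± 0.49 SE, adjusted p = 0.00164). The low Atg5 values among the het 1-cell libraries are those of libraries 1 and 3, which stood apart. The TMM factors of these libraries, 2.02 and 2.15 against 0.831 for library 2, lower the CPM of every gene in them. The part of this scaling in the Atg5 values was not tested.

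Atg16l1 (chr1:87755870-87792428, plus strand) had 20.6, 14.7 and 13.4 CPM in het 2-cell and 59.8, 32.1 and 49.8 CPM in het 1-cell libraries (log2 fold change -1.54 ± 0.46 SE, adjusted p = 0.0184), and 29.7, 19.99 and 14.996 CPM in WT 2-cell and 38.4, 48.8 and 94.5 CPM in WT 1-cell libraries (log2 fold change -1.49 ± 0.46 SE, adjusted p = 0.0171). In both genotypes its 2-cell libraries lay below its 1-cell libraries. Tbk1, the kinase that phosphorylates cargo receptors, had 2.51, 3.83 and 9.701 CPM in het 2-cell and 19.8, 17.3 and 18.3 CPM in het 1-cell libraries (log2 fold change -1.79 ± 0.57 SE, adjusted p = 0.0242). Its WT values were 7.29, 2.99 and 5.32 CPM in 2-cell and 18.02, 18.2 and 21.4 CPM in 1-cell libraries (log2 fold change -1.88 ± 0.57 SE, adjusted p = 0.0153). Sqstm1 had 15.9, 12.8 and 9.297 CPM in het 2-cell and 27.8, 33.1 and 29.99 CPM in het 1-cell libraries and fell (log2 fold change -1.26 ± 0.45 SE, adjusted p = 0.040996), while in WT it missed the threshold (log2 fold change -0.52 ± 0.45 SE, adjusted p = 0.343). Atg12, the partner of Atg5, missed the threshold in het (log2 fold change -0.52 ± 0.29 SE, adjusted p = 0.1604) and fell in WT, with 62.2, 69.6 and 60.7 CPM in 2-cell and 131, 149.9 and 125 CPM in 1-cell libraries (log2 fold change -1.07 ± 0.29 SE, adjusted p = 0.00841). The remaining conjugation genes, Atg3, Atg4b and Atg7, did not pass in either genotype, with adjusted p from 0.0689 to 0.975. Nor did the PI3-kinase members Becn1, Pik3c3 and Atg14, whose adjusted p lay between 0.0569 and 0.737. The cargo receptors Nbr1 and Optn did not pass either, with 1.74, 0.617 and 3.67 CPM of Optn in WT 2-cell and 11.6, 10.6 and 8.02 CPM in WT 1-cell libraries (log2 fold change -2.31 ± 1.14 SE, adjusted p = 0.103).

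Among mitophagy genes, Fundc1 and Bnip3 rose in het embryos. Fundc1, an outer-membrane receptor, had 301, 213 and 97.7 CPM in het 2-cell and 43.2, 38.3 and 37.98 CPM in het 1-cell libraries (log2 fold change 2.36 ± 0.46 SE, adjusted p = 0.00179), and 71.1, 62.9 and 101 CPM in WT 2-cell and 42.1, 36.2 and 34.7 CPM in WT 1-cell libraries (log2 fold change 1.06 ± 0.45 SE, adjusted p = 0.0629). The highest Fundc1 value, in het 2-cell library 1, is in the library with the lowest summed Atg8 level of the 2-cell libraries. Bnip3, also an outer-membrane receptor, had 99.4, 1066 and 825 CPM in het 2-cell libraries and 129.6, 265 and 105 CPM in het 1-cell libraries (log2 fold change 1.99 ± 0.64 SE, adjusted p = 0.0245). Het 2-cell library 1 lay below every het 1-cell library, against the direction of the call, and below every WT 2-cell library. The WT values of Bnip3 were 664, 663 and 483 CPM in 2-cell and 292, 297 and 245 CPM in 1-cell libraries (log2 fold change 1.12 ± 0.62 SE, adjusted p = 0.147). Gm45507, on the other strand, covers 22.3% of Bnip3 exon bases. Bnip3l missed the threshold in het (log2 fold change 0.93 ± 0.36 SE, adjusted p = 0.0549) and in WT (log2 fold change 0.49 ± 0.36 SE, adjusted p = 0.271). Pink1 was at most 3.83 CPM in any embryo library, and 2 of the 3 het 2-cell libraries had no count.

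The difference between the het and the WT stage change was tested as an interaction, and no member passed, where 0.00423% of all genes did; none reached an unadjusted p under 0.05, where 4.43% of all genes did, and DESeq2 called none. Fundc1 had the smallest p, with a difference of 1.30 ± 0.63 SE, adjusted p = 1.00, followed by Wipi2 at -2.39 ± 1.23 SE, adjusted p = 1.00. In the fit with only the WT 1-cell and 2-cell libraries, 26 members passed (19 higher, 7 lower) where 68.0% of all genes did. Without het 1-cell libraries 1 and 3, which leaves 1 het 1-cell library whose spread is assumed from the other groups, 7 members passed in het: Gabarap, Gabarapl2, Lamp2, Map1lc3a and Map1lc3b higher, Atg5 and Uvrag lower; without het 1-cell library 1 alone, 9 passed. With 1 library left out in turn, 8 of the 15 het calls held every time (Fundc1, Gabarap, Gabarapl2, Lamp2, Map1lc3a, Map1lc3b, Uvrag and Wipi2), and so did 11 of the 14 WT calls, all but Atg16l1, Atg9a and Tbk1. The other het calls were lost in at least 3 of 6 such fits, with the adjusted p reaching 0.218 for Atg5, 0.138 for Sqstm1 and 0.108 for Bnip3.

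**Figure D4:**
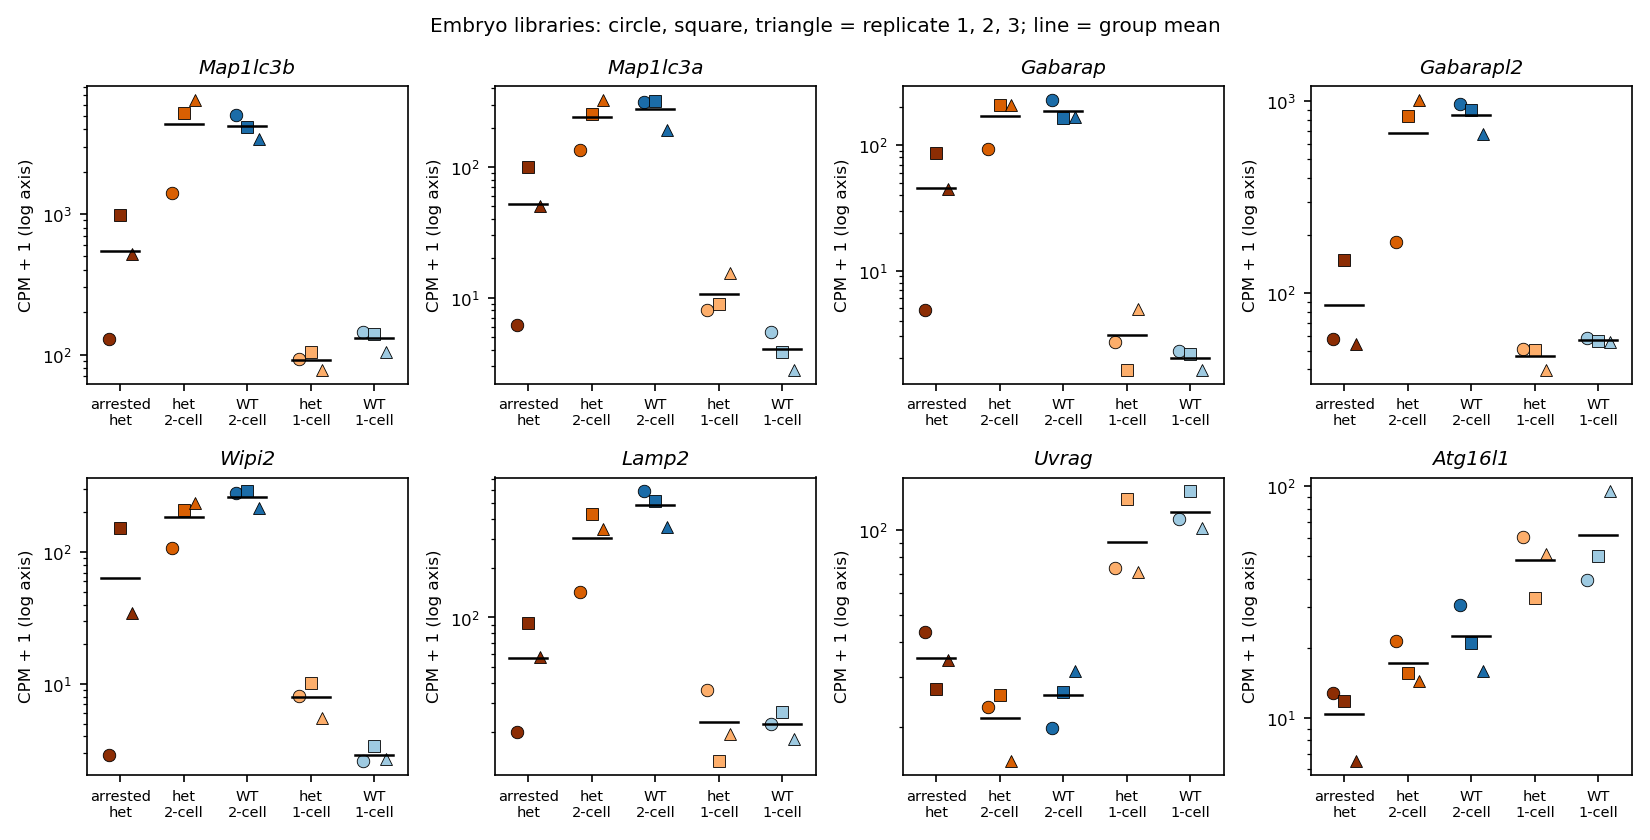
Levels of 8 members in the 15 embryo libraries: the y axis is CPM + 1 on a log scale, the x axis the group, points are libraries (circle, square and triangle for replicates 1, 2 and 3) and lines are group means. For Map1lc3b the 2-cell libraries lie between 1414 and 6509.6 CPM and the 1-cell libraries between 76.6 and 144 CPM; arrested library 1, at 127 CPM, lies among the 1-cell libraries and arrested libraries 2 and 3 lie between the stages.

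Genotype was compared within each stage. In 2-cell embryos no member passed, where 0.00423% of all genes did; DESeq2 called none, and 1 member, Fundc1, was higher at an unadjusted p under 0.05, which 5.57% of all genes reached. Its het and WT 2-cell values, given above, overlapped only through het library 3, and the log2 fold change, het over WT, was 1.38 ± 0.45 SE, adjusted p = 0.829. Atg3 had 24.4, 46.1 and 72.4 CPM in het 2-cell and 116, 85.3 and 59.3 CPM in WT 2-cell libraries (log2 fold change -0.87 ± 0.47 SE, adjusted p = 0.981). The median was -0.17 for members and 0.02 for all genes, and 1 member (2.94%), Atg9a, did not overlap between genotypes, against 12.9% of all genes.

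In 1-cell embryos no member passed either, and neither did any other gene (0% of 23656); DESeq2 called no member, and 1 member was higher at an unadjusted p under 0.05, which 3.76% of all genes reached. That was Map1lc3a, with 6.98, 7.88 and 14.4 CPM in het 1-cell and 4.45, 2.82 and 1.799 CPM in WT 1-cell libraries, without overlap (log2 fold change 1.69 ± 0.73 SE, adjusted p = 1.00). Wipi2 had 7.07, 9.23 and 4.501 CPM among het and 1.58, 2.37 and 1.696 CPM among WT 1-cell libraries, also without overlap (log2 fold change 1.88 ± 0.90 SE, adjusted p = 1.00). Het and WT 1-cell libraries did not overlap for 10 members (29.4%), 4 higher and 6 lower in het, where 16.2% of all genes did the same (10.2% higher and 6.08% lower). The median was 0.06 for members and 0.11 for all genes. Without het 1-cell library 2, 1 member passed, Atg5 as lower in het, among 284 genes called in all; the 2 het libraries left are those that stood apart.

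Het embryos that stayed at the 1-cell stage through 24 h of culture were compared with het and WT 1-cell embryos, which have no culture time given, and with cultured het 2-cell embryos. The comparisons share the arrested libraries. Gabarap, Map1lc3a, Map1lc3b and Wipi2 lay above every 1-cell library in arrested libraries 2 and 3 and within the 1-cell range in library 1. Against het 1-cell embryos 6 members rose and 3 fell, where 13.9% of all genes passed (9.97% higher and 3.91% lower). Against het 2-cell embryos 5 fell and none rose, where 8.4% of all genes passed (3.85% higher and 4.55% lower). Against WT 1-cell embryos 6 rose and 5 fell, where 19.5% of all genes passed (14.1% higher and 5.44% lower). The medians for members and all genes were 0.32 and 0.28 against het 1-cell, -0.56 and -0.01 against het 2-cell, and 0.33 and 0.46 against WT 1-cell embryos.

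These counts rest on the spread pooled over all 5 embryo groups. With only the groups compared in the fit, no member and no gene at all passed against het 1-cell or against het 2-cell embryos, and 1 member (Gabarap) passed against WT 1-cell embryos. Against het 1-cell embryos 2, 3 and 2 members passed without het 1-cell library 1, 2 and 3 in turn, none without libraries 1 and 3 together (1 library left, its spread assumed from the other groups), and 3 and 5 without arrested library 2 and 3. Against het 2-cell embryos none passed without het 2-cell library 2 or without library 3, while 3 passed without arrested library 1 and 11 without arrested library 2. Against WT 1-cell embryos 7 passed without each of the 3 WT 1-cell libraries. Without arrested library 1, 9 members rose and 6 fell against WT 1-cell embryos, and 8 rose and 3 fell against het 1-cell embryos. The shares of all genes called in these fits are not set beside the counts. The calls that held with any 1 library left out were Atg16l1 and Gabarap against het 1-cell embryos, and Atg14, Atg16l1, Gabarap, Map1lc3a, Ulk2, Uvrag and Wipi2 against WT 1-cell embryos; none did against het 2-cell embryos.

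Gabarap had 3.86, 86.1 and 43.5 CPM in the arrested libraries, against 1.68, 0.627 and 3.93 CPM in het 1-cell libraries (log2 fold change 4.40 ± 0.88 SE, adjusted p = 0.00642). Arrested library 1 overlapped the het 1-cell range and the other 2 lay above it. Map1lc3b had 127, 975 and 518 CPM in arrested libraries, above every het 1-cell library (log2 fold change 2.58 ± 0.72 SE, adjusted p = 0.0291) and below every het 2-cell library (log2 fold change -3.02 ± 0.74 SE, adjusted p = 0.0239). Against WT 1-cell libraries, which library 1 overlapped, it missed the threshold (log2 fold change 2.07 ± 0.71 SE, adjusted p = 0.0523). Map1lc3a had 5.18, 99.7 and 49.1 CPM, with library 1 below every het 1-cell library and the other 2 above, and it rose against het 1-cell (log2 fold change 2.39 ± 0.74 SE, adjusted p = 0.0435) and WT 1-cell embryos (log2 fold change 4.09 ± 0.80 SE, adjusted p = 0.00431). For Gabarapl2 the arrested libraries had 56.5, 147 and 52.9 CPM, close to 1-cell levels in libraries 1 and 3, and lay below all het 2-cell libraries (log2 fold change -2.99 ± 0.59 SE, adjusted p = 0.0132).

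Wipi2 had 1.88, 151 and 33.6 CPM in arrested libraries, library 1 lying in the WT 1-cell range and library 2 in the het 2-cell range (log2 fold change 3.17 ± 0.92 SE, adjusted p = 0.0341 against het 1-cell and log2 fold change 5.04 ± 1.01 SE, adjusted p = 0.00488 against WT 1-cell). Lamp2 had 19.03, 91.9 and 56.4 CPM, below every het 2-cell library (log2 fold change -2.44 ± 0.59 SE, adjusted p = 0.02301). Gabarapl1 had 0.471, 3.81 and 3.79 CPM in arrested libraries and no count in WT 1-cell libraries, at least 49.3-fold higher by the same floor (adjusted p = 0.0562). Tfeb had 0, 1.905 and 4.25 CPM in arrested libraries, at least 27.3-fold above het 1-cell (adjusted p = 0.06501) and at least 35.4-fold above WT 1-cell embryos (adjusted p = 0.0477) by the same floor. Ulk2 had 10.7, 19.2 and 12.5 CPM, higher than in every het 1-cell and WT 1-cell library (log2 fold change 1.67 ± 0.52 SE, adjusted p = 0.0454 and log2 fold change 2.43 ± 0.54 SE, adjusted p = 0.00783).

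Atg14 and Atg16l1 had lower values in arrested libraries than in either stage. Atg14 (chr14:47540893-47570649, minus strand), which targets the PI3-kinase complex to autophagosome formation, had 22.9, 15.6 and 9.503 CPM in arrested libraries, 45.5, 85.7 and 58.5 CPM in het 2-cell libraries, 37.5, 39.7 and 37.6 CPM in het 1-cell libraries and 43.8, 49.5 and 48.6 CPM in WT 1-cell libraries. All 3 arrested values lay below every other embryo library. The log2 fold change was -1.98 ± 0.38 SE, adjusted p = 0.0124 against het 2-cell, -1.26 ± 0.37 SE, adjusted p = 0.0364 against het 1-cell and -1.56 ± 0.37 SE, adjusted p = 0.01103 against WT 1-cell embryos; with DESeq2's size factors in edgeR the call against het 1-cell embryos was lost, at an adjusted p of 0.0698. Atg16l1 had 11.9, 10.8 and 5.49 CPM in arrested libraries, also below every other embryo library (log2 fold change -2.33 ± 0.48 SE, adjusted p = 0.00717 against het 1-cell and log2 fold change -2.69 ± 0.48 SE, adjusted p = 0.00286 against WT 1-cell). Against het 2-cell embryos Atg16l1 missed the threshold (log2 fold change -0.79 ± 0.46 SE, adjusted p = 0.283).

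Uvrag had 42.7, 26.4 and 33.5 CPM in arrested libraries, lower than in every het 1-cell (log2 fold change -1.40 ± 0.38 SE, adjusted p = 0.0258) and WT 1-cell library (log2 fold change -1.75 ± 0.39 SE, adjusted p = 0.00774). Atg12 (log2 fold change -1.05 ± 0.29 SE, adjusted p = 0.0224) and Tbk1 (log2 fold change -1.81 ± 0.57 SE, adjusted p = 0.0379) fell against WT 1-cell embryos. Neither passed against het 1-cell embryos (adjusted p = 0.226 for Atg12 and 0.0527 for Tbk1). Of the mitophagy receptors, Fundc1 had 52.7, 139.6 and 139 CPM in arrested libraries, above every 1-cell library, and rose against het 1-cell (log2 fold change 1.47 ± 0.45 SE, adjusted p = 0.0422) and WT 1-cell embryos (log2 fold change 1.55 ± 0.45 SE, adjusted p = 0.0271). Bnip3 had 130.1, 171 and 136 CPM in arrested libraries and fell against het 2-cell embryos (log2 fold change -2.19 ± 0.64 SE, adjusted p = 0.04797), although het 2-cell library 1, at 99.4 CPM, lay below all 3. Bnip3l had 187, 165 and 225 CPM, with adjusted p = 0.237 against het 1-cell and 0.651 against het 2-cell embryos.

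Markers of the 2-cell embryo separated the arrested libraries as well. The 8 markers measured were Zscan4c, Zscan4d, Zscan4f, Zfp352, Tcstv1, Tcstv3, Usp17la and Tdpoz3. They summed to 425, 3046 and 2145 CPM in arrested libraries, 2801, 1273 and 561 CPM in het 2-cell, 601, 551 and 1318 CPM in WT 2-cell, 139, 269 and 136 CPM in het 1-cell and 271, 278 and 252 CPM in WT 1-cell libraries. Most of the sum in arrested library 1 was Tcstv1 (297 CPM) and Tcstv3 (105 CPM), while Zscan4c had 4.43 CPM and Zfp352 4.80 CPM there. Unlike the Zscan4 genes, Tcstv1 was lower in WT 2-cell than in WT 1-cell embryos, with means of 40.2 and 205 CPM. Zfp352 had no count in any 1-cell library. Arrested library 1, with the lowest summed Atg8 level per kb of the 3, also had the lowest marker sum of the 3, and het 2-cell library 1, with the lowest summed Atg8 level of the 2-cell libraries, had the highest sum among them. Genes of the mitochondrial genome took 15.7% to 17.3% of counts in arrested libraries, 13.6% to 19.8% in het 2-cell, 0.336% to 3.68% in het 1-cell and 2.35% to 2.58% in WT 1-cell libraries. The 100 most abundant genes took 42.1% to 53.1% in arrested, 36.7% to 45.4% in het 2-cell, 5.53% to 38.05% in het 1-cell and 32.1% to 37.6% in WT 1-cell libraries. Of the 12 oocyte markers, 5 were lower in arrested than in het 1-cell embryos and 8 lower than in WT 1-cell embryos, none was higher, and against het 2-cell embryos none was called. The part of developmental progress, of the mitochondrial share and of the oocyte mRNA in the members' values was not tested.

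**Figure D5:**
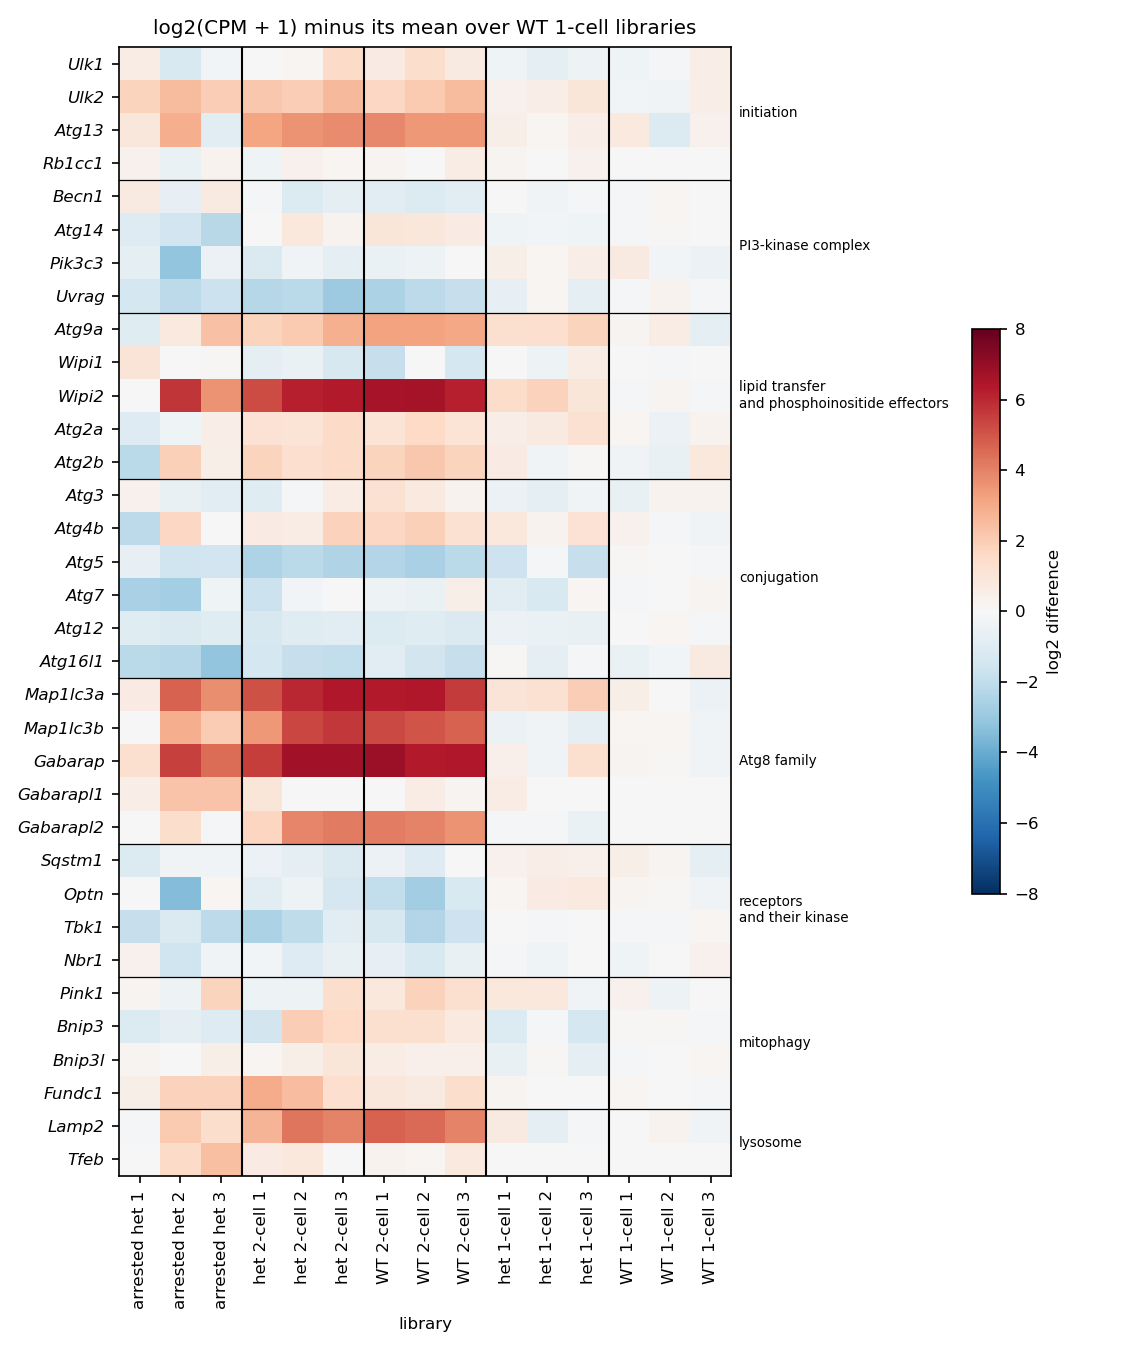
All 34 members (rows, grouped by role) in the 15 embryo libraries (columns): colour is log2(CPM + 1) minus its mean over the WT 1-cell libraries, red for higher and blue for lower. Map1lc3a, Map1lc3b, Gabarap, Gabarapl2, Wipi2 and Lamp2 are red in the 2-cell columns; arrested library 1 resembles the 1-cell columns for these genes, and Atg14 and Atg16l1 are blue in all 3 arrested columns.

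The start sites of 3 of these genes are shown because Map1lc3b and Wipi2 were among the members that rose most in 2-cell embryos and Atg14 was among those lowest in arrested embryos. Each line is the RefSeq window of GRCm38.p6 from 250 bases before to 50 bases after the annotated start, 5′ to 3′ on the gene's strand: chr8:121590188-121590487, plus strand for Map1lc3b, chr5:142629334-142629633, plus strand for Wipi2 and chr14:47568385-47568684, minus strand for Atg14. The windows of Wipi2 and Atg14 lie wholly inside the GENCODE gene spans given above, so RefSeq and GENCODE place these starts differently. Capitals mark CACGTG, the core of the element bound by TFEB and related factors, which was searched after the results were known.
Map1lc3b: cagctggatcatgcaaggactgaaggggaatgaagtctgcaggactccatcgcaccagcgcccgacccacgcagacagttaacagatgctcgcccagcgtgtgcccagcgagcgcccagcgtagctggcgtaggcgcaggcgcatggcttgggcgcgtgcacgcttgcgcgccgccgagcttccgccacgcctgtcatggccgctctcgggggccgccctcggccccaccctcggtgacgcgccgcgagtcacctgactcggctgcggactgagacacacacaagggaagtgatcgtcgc
Wipi2: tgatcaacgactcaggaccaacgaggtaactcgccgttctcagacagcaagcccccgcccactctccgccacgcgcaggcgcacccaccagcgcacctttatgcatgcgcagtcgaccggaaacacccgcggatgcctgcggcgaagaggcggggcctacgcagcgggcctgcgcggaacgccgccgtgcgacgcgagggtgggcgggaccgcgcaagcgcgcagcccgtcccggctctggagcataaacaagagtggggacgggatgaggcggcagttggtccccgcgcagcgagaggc
Atg14: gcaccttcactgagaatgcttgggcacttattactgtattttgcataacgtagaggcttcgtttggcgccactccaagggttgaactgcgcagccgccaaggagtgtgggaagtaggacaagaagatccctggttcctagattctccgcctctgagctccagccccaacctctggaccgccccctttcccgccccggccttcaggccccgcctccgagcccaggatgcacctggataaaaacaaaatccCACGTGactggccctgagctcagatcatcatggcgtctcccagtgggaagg
CACGTG reads the same on both strands. It stood in the windows of 6 of the 27 members that have a window (Atg14, Atg3, Atg5, Atg7, Bnip3 and Tbk1), in 6 of their 30 windows, and in 7.15% of all 32851 windows. The longer GTCACGTG, searched on both strands and overlapping the first motif, stood in the windows of 4 members (Atg14, Atg3, Atg7 and Tbk1) and in 2.25% of all windows. Of the members with the motif, Atg5 and Tbk1 fell in 2-cell against 1-cell embryos of both genotypes, Bnip3 rose in het, and Atg3, Atg7 and Atg14 did not pass in either genotype.

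Other genes of the pathway were read from lists written with earlier results of these data known. The oocyte calls of these lists rest on 2 libraries a group, and their values in the alternative fits are not given here. Between het and WT oocytes, 4.61% of all genes passed in translatomes and 2.55% in transcriptomes. Among 27 further core autophagy genes, 1 fell in het translatomes, Rubcn, an inhibitor of the PI3-kinase complex, with 111 ± 3.79 CPM in het and 235 ± 57.4 CPM in WT (SD, n = 2 each; log2 fold change -1.08 ± 0.26 SE, adjusted p = 0.03401). In transcriptomes 1 fell, Atg16l2, a relative of Atg16l1, with 0.293 ± 0.06101 CPM in het and 3.59 ± 0.0979 CPM in WT (log2 fold change -3.48 ± 0.56 SE, adjusted p = 0.00859). Its het level is near the floor, and het transcriptome library 1 held only 3621103 counts. Of 28 further genes of selective autophagy and mitophagy, Calcoco1 fell in translatomes (log2 fold change -1.36 ± 0.33 SE, adjusted p = 0.03705) and Nipsnap1 in transcriptomes (log2 fold change -1.04 ± 0.25 SE, adjusted p = 0.0484).

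Of 36 genes of mTORC1, AMPK and nutrient sensing, Tfe3, a transcription factor related to Tfeb, and Flcn, which controls the entry of such factors into the nucleus, fell in het translatomes. Tfe3 had 32.7 ± 0.5803 CPM in het and 93.1 ± 44.4 CPM in WT (log2 fold change -1.51 ± 0.34 SE, adjusted p = 0.0293), and Flcn 49.7 ± 1.396 CPM in het and 96.5 ± 16.2 CPM in WT (log2 fold change -0.96 ± 0.24 SE, adjusted p = 0.0434). By the SD, the WT values of Tfe3 lay far apart. Rptor, the mTORC1 subunit Raptor, fell in het transcriptomes (log2 fold change -2.12 ± 0.47 SE, adjusted p = 0.0339). Of 36 lysosomal genes, Ctsl and Cd63 rose in both fractions and Tpp1 fell in transcriptomes. Over all genes 4.61% passed in translatomes and 2.55% in transcriptomes. Ctsl, encoding cathepsin L, had 183 ± 29.8 CPM in het and 38.5 ± 17.7 CPM in WT translatomes (log2 fold change 2.26 ± 0.38 SE, adjusted p = 0.00836). The granulosa markers given above were higher in the same libraries, and their part in Ctsl and Cd63 was not tested.

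In het 2-cell against 1-cell embryos, 7 of the 27 further core genes rose and 8 fell, and in WT 9 rose and 11 fell, where 22.8% of all genes rose and 13.9% fell in het, and 28.5% rose and 17.9% fell in WT. The smallest p in het was that of Wdr45b, a WIPI-family gene, with 124 ± 63.8 CPM in 2-cell and 3.81 ± 2.16 CPM in 1-cell embryos (SD, n = 3 each; log2 fold change 5.01 ± 0.70 SE, adjusted p = 0.000276). In WT it was that of Rubcn, with 5.36 ± 1.62 CPM in 2-cell and 98.5 ± 28.04 CPM in 1-cell embryos (log2 fold change -4.20 ± 0.56 SE, adjusted p = 0.000127). Of the 28 selective autophagy genes, 4 rose and 6 fell in het, and 6 rose and 8 fell in WT, against the same shares of all genes. The receptors Ncoa4 (log2 fold change -3.50 ± 0.56 SE, adjusted p = 0.000571 in het and -4.15 ± 0.58 SE, adjusted p = 0.0001503 in WT) and Tax1bp1 (log2 fold change -2.28 ± 0.44 SE, adjusted p = 0.00161 in het and -2.68 ± 0.45 SE, adjusted p = 0.000417 in WT) fell in both genotypes. No gene of the 4 lists was called between het and WT at the 1-cell stage, where 0% of all genes were, or at the 2-cell stage, where 0.00423% were.

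In arrested against het 2-cell embryos 7 of the 27 further core genes passed, 3 higher and 4 lower, where 8.4% of all genes passed, and against het 1-cell embryos 3 passed, 2 higher and 1 lower, where 13.9% of all genes did. Vmp1, which shapes the membrane at which autophagosomes form, had 39.1 ± 28.9 CPM in arrested and 325 ± 219 CPM in het 2-cell embryos (log2 fold change -3.05 ± 0.68 SE, adjusted p = 0.0181). Its partner Tmem41b had 431 ± 238 CPM in arrested and 2484 ± 1269.9 CPM in het 2-cell embryos (log2 fold change -2.53 ± 0.60 SE, adjusted p = 0.0222). Among the selective autophagy genes, 3 were higher and 1 lower in arrested than in het 2-cell embryos, led by Ncoa4, the ferritin receptor, with 182 ± 104 CPM in arrested and 22.8 ± 16.5 CPM in het 2-cell embryos (log2 fold change 3.0 ± 0.55 SE, adjusted p = 0.0115). As with the 34 genes, no gene passed in the fit with only the 2 groups compared.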

How the data were processed

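Polyadenylated RNA of 8 oocyte libraries and 15 embryo libraries was amplified with a single-cell full-length kit, per the labels' protocols. The authors deposited raw read counts per gene in 2 tables, one for oocytes and one for embryos. The submitters' processing notes name mm10 as the build and list featureCounts (version 1.6.5), HISAT2 (version 2.1.0) and Trim Galore (version 0.6.4); the sources used here do not give the annotation release, the strand setting or the handling of shared reads. Gene coordinates and exon lengths are from GENCODE M21, which holds 54673 of the 56196 row identifiers with the same version. Spreadsheet dates replaced 28 symbols in each table; no member was among them.

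Each table was fitted once, with all its groups, in edgeR 4.0.16 (R 4.3.3): genes filtered by filterByExpr, TMM scaling, quasi-likelihood F test, and Benjamini-Hochberg adjustment over all genes tested, with calls at an adjusted p under 0.05. Standard errors are the fold change divided by the square root of F. DESeq2 1.42.0, other scaling (DESeq2's size factors in edgeR), no filter, a replicate block, fits of the compared groups alone and leaving out each library were the alternatives. A floor of 3 counts over a group stands for 0. The labels tie each translatome to a transcriptome of the same specimen by a specimen number; over 8841 genes their deviations from the group means correlated at 0.27 in het and 0.0535 in WT. The members and lists were chosen with earlier results of these data known. The text names each called member, or the 2 with the smallest p where fewer than 2 were called, and up to 4 called genes of each further list.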

Additional observations from a re-analysis of the deposited data

Results flagged for a closer look

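In all, 4 members had genotype differences in opposite directions in the oocyte translatome and transcriptome, with no overlap between het and WT in either fraction. The differences of the log2 changes (translatome minus transcriptome) were -1.23 for Rb1cc1, 0.71 for Map1lc3b, 1.01 for Sqstm1 and -1.40 for Ulk2. As an interaction in edgeR their adjusted p were 0.407, 0.5797, 0.458 and 0.5604, so none passed. Such opposite patterns were found for 5.73% of all 22409 genes, with 2 libraries a group. Map1lc3b had 122 and 101 CPM among het and 66.5 and 95.1 CPM among WT translatomes, and 99.03 and 102 CPM among het and 109.9 and 128 CPM among WT transcriptomes. Ulk2 had 2.705 and 1.95 CPM among het and 2.93 and 4.09 CPM among WT translatomes, and 1.75 and 2.88 CPM among het and 1.58 and 1.19 CPM among WT transcriptomes.

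Atg9a was lower in every het 2-cell library than in every WT 2-cell library and higher in every het 1-cell library than in every WT 1-cell library. The het stage change minus the WT stage change was -2.98 ± 1.58 SE, adjusted p = 1.00 by the interaction test, and such a pattern was found for 1.04% of all 23656 genes. Of the 3 het 1-cell libraries, 2 are those that stood apart; library 2, which did not, had 3.85 CPM.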

How the results depend on the processing

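Of 739 alternative values for 65 named fold changes of members, 577 kept their direction and their side of the threshold, 151 kept their direction but no longer passed, 10 newly passed and 1 turned: Tfeb, translatome over transcriptome in WT, had a log2 fold change of 0 without WT translatome library 1, which holds all its reads, and 7.57 without library 2. In the oocyte translatome, het against WT, 3 members passed without a filter on low counts and 2 with DESeq2, and leaving out 1 library gave 0 to 1; in the transcriptome 3 passed without a filter and 3 with DESeq2, and leaving out 1 library gave 0 to 1. For translatome against transcriptome in het, DESeq2 called 6, the fit of these groups alone 5, and leaving out 1 library gave 0 to 2; in WT the fit of these groups alone called 2, and leaving out 1 library gave 2 to 4. In 1-cell embryos, het against WT, leaving out 1 library gave 0 to 1. For 2-cell against 1-cell embryos, leaving out 1 library gave 9 to 14 in het, and 7 members passed without het 1-cell libraries 1 and 3, which leaves 1 library; in WT the fit of these groups alone called 26. For arrested against het 1-cell embryos, 5 passed without a filter, 0 in the fit of these groups alone, 0 without het 1-cell libraries 1 and 3, and 2 to 11 with 1 library left out. Against het 2-cell embryos DESeq2 called 8, the fit of these groups alone 0, and leaving out 1 library gave 0 to 11. Against WT 1-cell embryos the fit of these groups alone called 1, and leaving out 1 library gave 7 to 15. Where 1 library is left in a group (each left-out oocyte library, and het 1-cell libraries 1 and 3), it is assumed to vary like the other groups. Shares of all genes under each setting are not set beside these counts. The number of all genes called moved with DESeq2 too, as given below. These counts alone therefore do not set the members apart from all genes. The cause of these shifts was not tested.

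With the replicate block, 5 members passed for translatome against transcriptome in het, where the number is the specimen, and 2 for arrested against het 1-cell embryos; in the other comparisons the block moved no count by over 1.5 times. Outside the specimen pairs the libraries share only a number: same-numbered embryo libraries correlated at -0.454 to 0.286 over 7099 genes, and het with WT oocyte libraries of the same fraction at -0.347 and -0.443.

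Over all genes, DESeq2 called 1908 against edgeR's 1034 in the translatome, 1418 against 572 in the transcriptome, 109 against 3 for the difference between fractions, 2777 against 1814 for translatome over transcriptome in het, 79 against 0 in 1-cell and 121 against 1 in 2-cell embryos by genotype, and 73 against 1 for the difference of stage changes. For arrested embryos it called 5744 against 3283 relative to het 1-cell, 4941 against 1986 relative to het 2-cell and 7012 against 4624 relative to WT 1-cell embryos. With DESeq2's size factors in edgeR the median log2 fold change of all genes moved to 0.53 in het and 0.76 in WT for 2-cell against 1-cell embryos, against 0.36 and 0.59 with TMM, and to -0.13 for arrested against het 2-cell embryos, against -0.01; the share of higher calls in the transcriptome moved to 65.7%, against 55.4% with TMM. Depths of 3621103 to 7336764 counts in 3 libraries limit the low members (Tfeb, Gabarapl1, Pink1).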

Other observations

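Of the 36 lysosomal genes listed outside the 34, 15 rose and 7 fell in het 2-cell against 1-cell embryos, and 18 rose and 9 fell in WT, where 22.8% of all genes rose and 13.9% fell in het, and 28.5% rose and 17.9% fell in WT. Ctsl, encoding cathepsin L, had 1178 ± 585 CPM in het 2-cell and 2.55 ± 1.54 CPM in het 1-cell embryos (SD, n = 3 each; log2 fold change 8.85 ± 1.29 SE, adjusted p = 0.000331), and 1467 ± 235 CPM in WT 2-cell and 2.22 ± 1.02 CPM in WT 1-cell embryos (log2 fold change 9.36 ± 1.32 SE, adjusted p = 0.000156). Npc1, a lysosomal cholesterol transporter, fell in het 2-cell (log2 fold change -2.48 ± 0.40 SE, adjusted p = 0.000627) and WT 2-cell embryos (log2 fold change -3.38 ± 0.42 SE, adjusted p = 0.000101), and it was lower in arrested than in het 1-cell embryos (log2 fold change -2.83 ± 0.41 SE, adjusted p = 0.00186). In oocytes Psap, the saposin precursor, was higher in the translatome than in the transcriptome in het (log2 fold change 3.50 ± 0.41 SE, adjusted p = 0.000887) and WT (log2 fold change 3.59 ± 0.38 SE, adjusted p = 0.000303).

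Of the 36 nutrient-sensing genes, 8 rose and 7 fell in het 2-cell against 1-cell embryos, and 9 rose and 10 fell in WT, against the same shares of all genes. Genes of the Rag and Ragulator group, which tether mTORC1 to lysosomes, were among those that fell. For Rraga this was a log2 fold change -3.72 ± 0.79 SE, adjusted p = 0.00283 in het and a log2 fold change -4.78 ± 0.83 SE, adjusted p = 0.000534 in WT, and for Lamtor3 a log2 fold change -2.56 ± 0.59 SE, adjusted p = 0.00446 in het and a log2 fold change -3.99 ± 0.63 SE, adjusted p = 0.000287 in WT. Tsc2, an inhibitor of mTORC1 signalling, had 370.3 ± 202 CPM in arrested and 31.8 ± 10.8 CPM in het 1-cell embryos (log2 fold change 3.54 ± 0.58 SE, adjusted p = 0.00255). Akt1s1, encoding the mTORC1 inhibitor PRAS40, was higher in the translatome than in the transcriptome of het (log2 fold change 2.79 ± 0.27 SE, adjusted p = 0.000441) and WT oocytes (log2 fold change 2.32 ± 0.25 SE, adjusted p = 0.0003502). The calls in arrested embryos rest on the spread pooled over all embryo groups.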
